A study of Mus musculus with 6 samples.

Results

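The Runx factors Runx1, Runx2 and Runx3 and their partner Cbfb were examined for accessible chromatin in a mouse T-cell line. The regions belonging to them were all intervals of the deposited ATAC-Seq list (peaks) that overlapped the body of a gene, or 100 kb to either side of it, by at least 1 bp. This gave 53 of the 32527 peaks, found at 4 of 22271 protein-coding genes of the annotation, with 15 peaks at Runx1, 11 at Runx2, 14 at Runx3 and 13 at Cbfb. ATAC-Seq marks open chromatin through a transposase that inserts sequencing adapters where DNA is not covered by nucleosomes. The cells were Beko cells, an established mouse line that the labels give as pre-T or progenitor T cells and in which Notch signaling is constitutively active. The 6 libraries came from cells kept for 24 h with the solvent DMSO (3 libraries) or with the γ-secretase inhibitor (GSI) DAPT (3 libraries), which blocks the release of the Notch intracellular domain. The labels state 10 mg/ml DAPT and the study's methods 10 μg/ml. The list merged all 6 libraries, required a peak in 3 of them and held no value per library, so it does not show in which treatment a peak occurred, and GSI against DMSO was not analysed here. For the same reason there was no replicate error and no test for any value below, and the read depth behind a peak is unknown.

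RUNX proteins are transcription factors that contact DNA through the Runt domain, and Cbfb, which does not bind DNA itself, strengthens that contact by joining each of them. In blood, Runx1 is needed to form stem cells and early T cells, Runx3 acts with it in silencing Cd4 and in cytotoxic T cells, and Runx2 is best known as a regulator of bone formation. Each Runx gene is transcribed from a distal promoter (P1) and a proximal promoter (P2), which give proteins with different N-termini. Cbfb has no such pair of promoters. In the annotation, a complete protein-coding transcript was assigned to P1 where its protein began with MAS and to P2 where it began with MRIPV.

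As an overview, 19 of the 53 peaks lay in introns of the Runx genes more than 1 kb from every annotated start (10 in Runx1, 6 in Runx2, 3 in Runx3 and 0 in Cbfb). These are called intronic enhancer peaks below by their position only, since no other mark was analysed. P1 promoters had 2 peaks, P2 promoters had 4 and the start of Cbfb had 1. Another 11 peaks lay within 1 kb of the start of another gene, 7 inside another gene and 9 between genes. For comparison, the whole list of 32527 peaks held 9414 distal intronic peaks and 11522 promoter peaks. Beyond the peaks at starts, which were classed before the others and can be centred in a first exon, none was centred in an exon of the 4 genes. The layout differed between the genes. Runx1 had 12 of its 15 peaks in the gene body and 0 upstream of it, Runx3 had 6 in the body, 2 upstream and 6 downstream, and Cbfb had 1 in the body and 10 downstream.

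**Figure D1:**
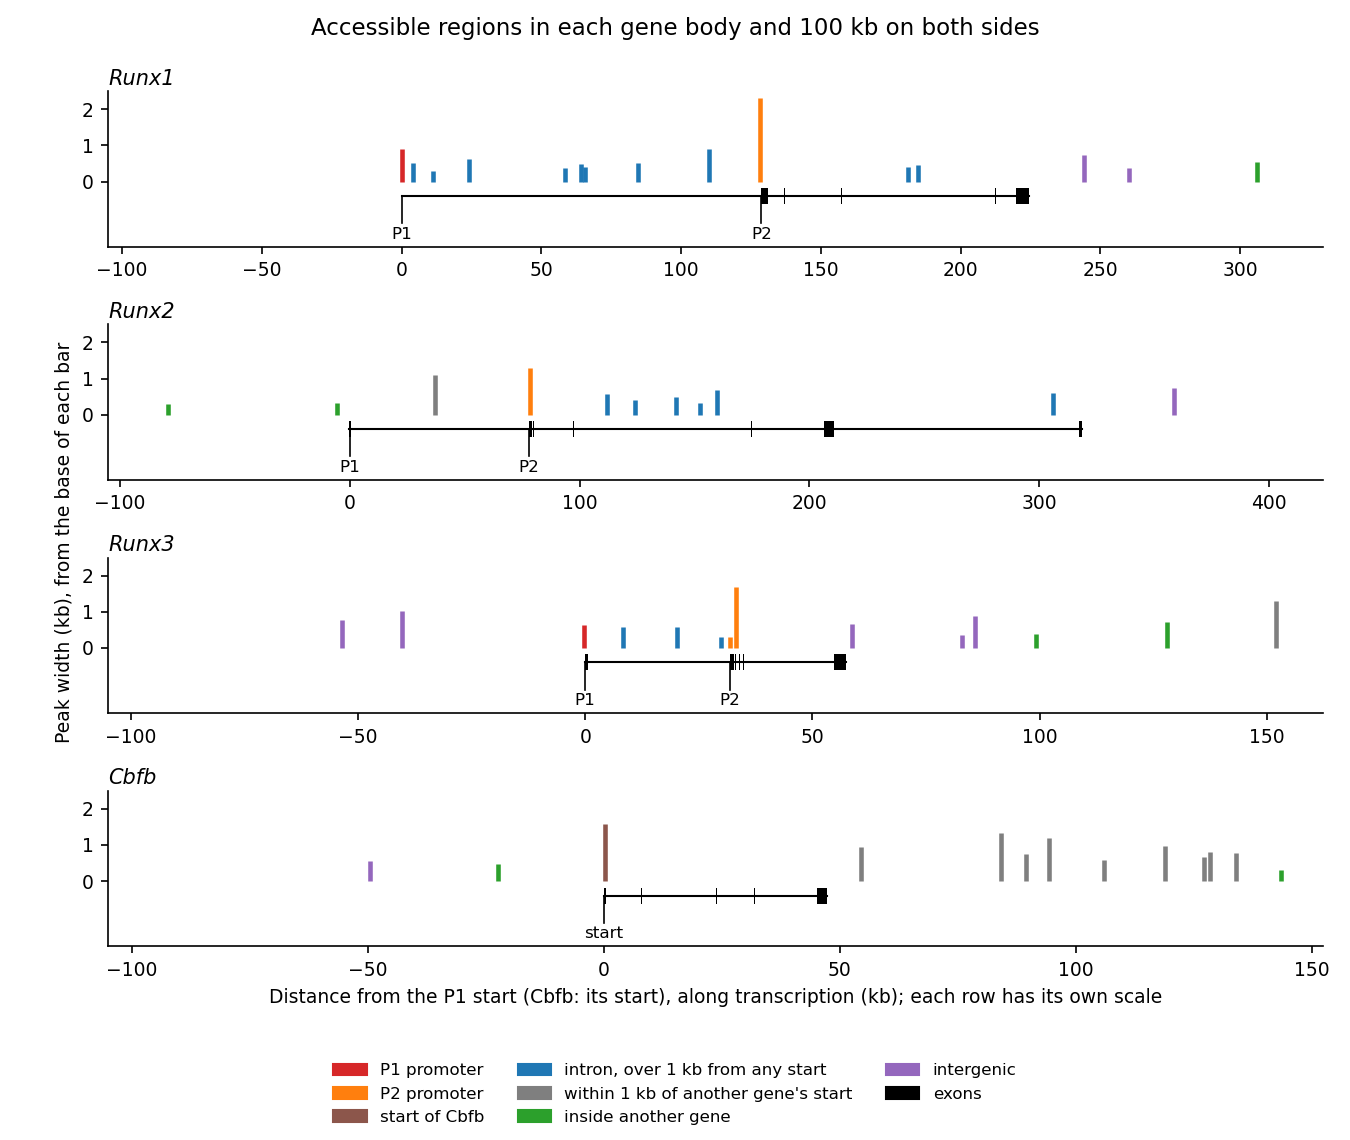
Peaks at Runx1, Runx2, Runx3 and Cbfb, plotted by the distance of their centre from the P1 start (for Cbfb, its start) along transcription in kb, with the height of each bar giving the peak width in kb and colour its position class, above the exons of all transcripts. Intronic peaks of Runx1 stand mostly between P1 and P2 (8 of 10), those of Runx2 past P2 (6 of 6) and those of Runx3 between P1 and P2 (3 of 3).

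All 4 genes had a peak within 1 kb of an own start, as did 47.0% of coding genes. Of the 6 Runx promoters, 5 had a peak, and the exception was P1 of Runx2. Runx1 (mm9, chr16:92601712-92826311, minus strand) and Runx3 (chr4:134676567-134733905, plus strand) had peaks at both promoters. Among 3025 coding genes with coding starts at least 5 kb apart, both starts had a peak in 8.89%. Runx2 (chr17:44632936-44951746, minus strand) had a peak at the downstream promoter only, the pattern of 8.17% of those genes. In 37.6% of them the upstream start alone had a peak.

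At Runx1 P1 the peak chr16:92825820-92826726 (907 bp) reached 415 bp upstream and 491 bp downstream of the start. At Runx1 P2, 128738 bp farther along the gene, the peak chr16:92696990-92699290 was 2301 bp wide and lay mostly upstream, with 1717 bp before the start and 583 bp after it. It was the widest of the 53 peaks, and 29 peaks of the whole list (0.0892%) were wider. Runx3 P1 lay in a peak of 644 bp, chr4:134676014-134676657. A start of the gene Gm16225 lay in or within 1 kb of this peak. At Runx3 P2, 31844 bp downstream, a peak of 292 bp over the start (chr4:134708228-134708519) was followed after 285 bp by a peak of 1690 bp (chr4:134708805-134710494), the widest of this gene. In both genes the widest peak was thus classed to P2 by its distance. That of Runx3 does not cover the P2 start and holds starts of other annotated Runx3 transcripts.

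Runx2 P2 lay at the edge of a peak of 1288 bp, chr17:44872356-44873643, which extended 1241 bp into the gene and 46 bp upstream. A start of the gene Gm10497 lay in or within 1 kb of the same peak. The P1 start of Runx2, 77933 bp upstream, was 5288 bp away from the nearest peak (chr17:44956818-44957147, 330 bp), which lay inside the neighbouring gene Supt3h. Other annotated Runx2 starts at that end of the gene, some of them for proteins beginning with MLHSP, had no peak within 1 kb either. At Cbfb (chr8:107694574-107741886, plus strand) a peak of 1573 bp, chr8:107694068-107695640, reached 506 bp upstream and 1066 bp into the gene, and it was the widest peak of its window. A small nuclear RNA gene annotated as U6 had a start within 1 kb of it.

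**Figure D2:**
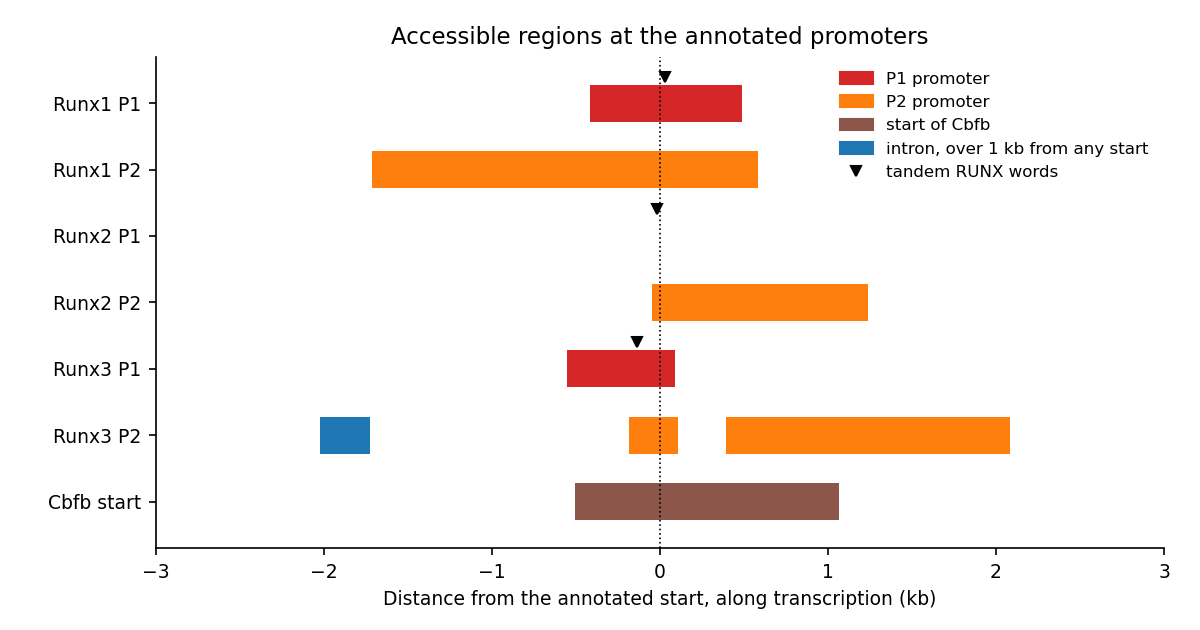
Peaks (bars) around the annotated starts of P1 and P2 of each Runx gene and of Cbfb, by distance from the start along transcription in kb. The black triangles mark the tandem RUNX words described in the text, which lie inside the P1 peaks of Runx1 and Runx3, while the row of Runx2 P1 holds the triangle and no peak.

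The letters around the P1 starts were then read for the RUNX words TGTGGT and TGCGGT, searched on both strands, to see what the P1 promoters share. Within 300 bp on each side of the start, TGTGGT occurred 3 times at Runx1 P1, 4 times at Runx2 P1 and 2 times at Runx3 P1. The longest run of bases common to all 3 windows was 18 bases long and held TGTGGT 2 times, read on the strand of transcription as its reverse complement ACCACA, with 2 bases between the copies. These 30-base stretches (mm9, strand of the gene) are shown because they hold the run that the P1 promoters have in common. The bases flanking the run differ between the genes. Capitals mark the RUNX words of the shared run only, so the TGCGGT that ends the Runx2 stretch is not marked.
Runx1 P1: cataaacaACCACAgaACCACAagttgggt
Runx2 P1: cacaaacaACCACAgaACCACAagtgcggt
Runx3 P1: gtccctcaACCACAgaACCACAaggccagg
They lie at chr16:92826270-92826299 (minus strand), chr17:44951532-44951561 (minus strand) and chr4:134676418-134676447 (plus strand). Counted along transcription, with negative values upstream of the start, the copies of ACCACA began at 20 and 28 bp at Runx1, at -23 and -15 bp at Runx2, and at -141 and -133 bp at Runx3. The Runx1 copy is in the 5′ UTR of a P1 transcript, the Runx2 copy is in an exon of Runx2 transcripts that start farther upstream, and the Runx3 copy is in no annotated exon.

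The 18-base run occurred 3 times in the whole mm9 sequence, once at each P1 start, and 2 of the 3 copies were inside a peak. The looser word TGTGGTNNTGTGGT, with any 2 bases between the copies, occurred 1389 times in the genome. It was present in 24 of the 32527 peaks (0.0738%), of which 2 were the P1 peaks of Runx1 and Runx3. It was also present within 300 bp of 16 of 43226 coding starts (0.0370%). Of these 16 starts, 5 held the 18-base run itself, all of them starts of Runx1, Runx2 or Runx3. This search was chosen after the RUNX words at P1 had been counted. In the 250 bp upstream of the start alone, Runx2 P1 held 3 copies of TGTGGT, each of them the longer word TGTGGTT, and 1 of TGCGGT, and Runx3 P1 held 2 of TGTGGTT. Runx1 P1 and all 3 P2 promoters held neither RUNX word in that stretch. Over 43226 coding starts, 17.6% held a RUNX word in the same stretch, 2.00% held 2 or more, and 4.02% held TGTGGTT. The longer word contains TGTGGT, so these counts overlap. In these 250 bp, the Runx2 promoter without a peak therefore had more RUNX words than any of the 5 promoters with a peak. The size of this difference depends on the stretch, because the shared run lies downstream of the Runx1 start and was not counted there. Within 300 bp on each side, TGTGGT occurred 4 times at Runx2 P1, 3 times at Runx1 P1 and 2 times at Runx3 P1. A match of letters is a description and does not show that a factor is bound.

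P1 and P2 differed in CpG content. The ratio of observed to expected CpG in the 250 bp upstream of the start was 0.165, 0.167 and 0.278 at P1 of Runx1, Runx2 and Runx3. It was 0.993 at P2 of Runx1 and 0.914 at P2 of Runx3, but 0.270 at P2 of Runx2, and it was also high at Cbfb. There the 250 bp held 4 copies of the SP word GGGCGG, a word present in the same stretch at 42.7% of 43226 coding starts. To show the CpG contrast between P1 and P2 at Runx1, the 200 bases directly upstream of each start follow. They run 5′ to 3′ on the minus strand of mm9, with capitals marking each CpG.
Runx1 P1 upstream: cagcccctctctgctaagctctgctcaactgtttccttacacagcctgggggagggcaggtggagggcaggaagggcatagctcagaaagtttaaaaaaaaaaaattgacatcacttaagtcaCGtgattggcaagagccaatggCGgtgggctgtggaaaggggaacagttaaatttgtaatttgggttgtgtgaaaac
Runx1 P2 upstream: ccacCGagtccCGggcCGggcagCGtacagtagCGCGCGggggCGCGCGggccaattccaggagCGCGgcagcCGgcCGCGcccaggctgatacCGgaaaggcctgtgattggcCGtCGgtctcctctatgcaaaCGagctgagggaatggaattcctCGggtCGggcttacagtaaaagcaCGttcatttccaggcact
The P1 stretch, chr16:92826312-92826511, held 2 CpGs and the P2 stretch, chr16:92697574-92697773, held 22. Both are inside the peaks of their promoters. The corresponding stretches held 5 CpGs at Runx3 P1, 28 at Runx3 P2 and 4 at Runx2 P2.

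When whole peaks were considered, none of the 2 P1 peaks was CpG-rich, taken to mean at least 50% GC together with a CpG ratio no lower than 0.6. Of the 4 P2 peaks, 3 were CpG-rich, among them the peak of Runx2 P2 with a ratio of 0.848, which reached 1241 bp downstream of the start and 46 bp upstream of it. The exception was the 1690 bp peak past the start of Runx3 P2, with a ratio of 0.558. The Cbfb peak had a ratio of 0.968. In the whole list, 68.3% of promoter peaks were CpG-rich. The list gives no peak strength, so width and CpG content are not read as activity.

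Runx1 had 10 intronic enhancer peaks, and 8 of them lay in intron 2, the long intron between P1 and P2. Their centres were 3.99, 11.3, 24.2, 58.4, 64.1, 65.7, 84.5 and 110 kb downstream of the P1 start. An enhancer that is active in blood stem cells is known in this intron, but no attempt was made here to match it to a peak. The widest of these peaks, chr16:92715729-92716637 at 110 kb, measured 909 bp, beside 907 bp for the P1 peak. The other 7 in intron 2 measured 298 to 629 bp. The pair at 64.1 and 65.7 kb was separated by 1219 bp. Farther along, 1 peak each in introns 5 and 6, at 181 and 185 kb, measured 392 and 460 bp. Per 100 kb, the stretch from P1 to P2 (129 kb) had 6.21 intronic enhancer peaks and the stretch from P2 to the end of the gene had 2.09. The remaining 3 Runx1 peaks lay downstream of the gene, with 2 of them intergenic and 1 inside Clic6. No other coding gene starts in the Runx1 window.

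Runx2 showed the reverse layout. Its 6 intronic enhancer peaks all lay past P2, and 0 lay in the 77.9 kb between P1 and P2. A group of 5 stood at 112, 124, 142, 152 and 160 kb from the P1 start, with 4 of them in intron 4 and 1 in intron 5. They measured 566, 411, 499, 327 and 680 bp in this order. The sixth, chr17:44645160-44645762 (603 bp), was centred 306 kb from the P1 start, in the part of the gene that lies past the last exon of the P1 transcript used to number the introns. Past P2 there were thus 2.49 intronic enhancer peaks per 100 kb. The only peak between P1 and P2 was chr17:44913684-44914780 (1097 bp), at the start of Supt3h, a gene that encodes a subunit of transcriptional coactivator complexes. Supt3h starts inside Runx2, is transcribed in the opposite direction and covers the P1 end of Runx2. The 2 peaks upstream of Runx2, of 330 and 310 bp, were inside Supt3h as well.

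In Runx3, the shortest of the Runx genes, all 3 intronic enhancer peaks lay in intron 1 between P1 and P2, centred 8419, 20253 and 29968 bp from the P1 start. They measured 566, 593 and 298 bp, and their density of 9.42 per 100 kb was the highest of the 6 stretches compared. Past P2 there was none. The last of them was 1543 bp away from the peak over the P2 start. From the P2 start itself it was more than 1 kb but less than 2 kb away. A definition of distal peaks as more than 2 kb from every start therefore left it out, whereas the density of 9.42 includes it. Outside the gene, 5 peaks were intergenic. Of these, 2 lay upstream, centred at -53.6 and -40.3 kb from P1, and measured 784 and 1027 bp, and the other 3 lay downstream of the gene and measured 353 to 882 bp. The 1 other coding gene that starts in the window is Clic4, a chloride intracellular channel gene, with a peak at its start and 2 more in its body.

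Cbfb had no intronic enhancer peak and only the start peak in its 47.3 kb body. Its window was dense in other genes, with starts of 12 other coding genes (48.5 per Mb) against 0 for Runx1, 1 for Runx2 and 1 for Runx3. Of these 12 genes, 8 had a peak at an own start, beside 47.0% of all coding genes, and Fbxl8 and Tradd shared a peak. Accordingly, 9 of the 13 peaks of the Cbfb window lay within 1 kb of the start of another gene. The nearest of them, of 943 bp, was at the start of D230025D16Rik, 54.4 kb downstream of the Cbfb start. The nearest peak on the other side, centred at -22.4 kb, lay inside Ces4a and measured 476 bp. Farther downstream, E2f4, which encodes a cell-cycle regulator, had peaks of 672 and 807 bp within 1 kb of its starts.

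Peak widths followed position more than gene. The median width was 502 bp at Runx1, 566 bp at Runx2, 660 bp at Runx3 and 770 bp at Cbfb, against 551 bp in the whole list. All 53 peaks had a median of 603 bp and a range from 292 to 2301 bp. The 19 intronic enhancer peaks had a median of 499 bp (298 to 909 bp), close to the 461 bp of the 9414 distal intronic peaks of the list. Their median GC content was 50.1%, the same as in those, and 1 of 19 was CpG-rich, against 1.25%. This was the peak 29968 bp past P1 of Runx3. The 7 peaks at own promoters had a median of 1288 bp, against 855 bp for the 11522 promoter peaks of the list. These groups are small and no test was made, so the differences are given as values only.

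**Figure D3:**
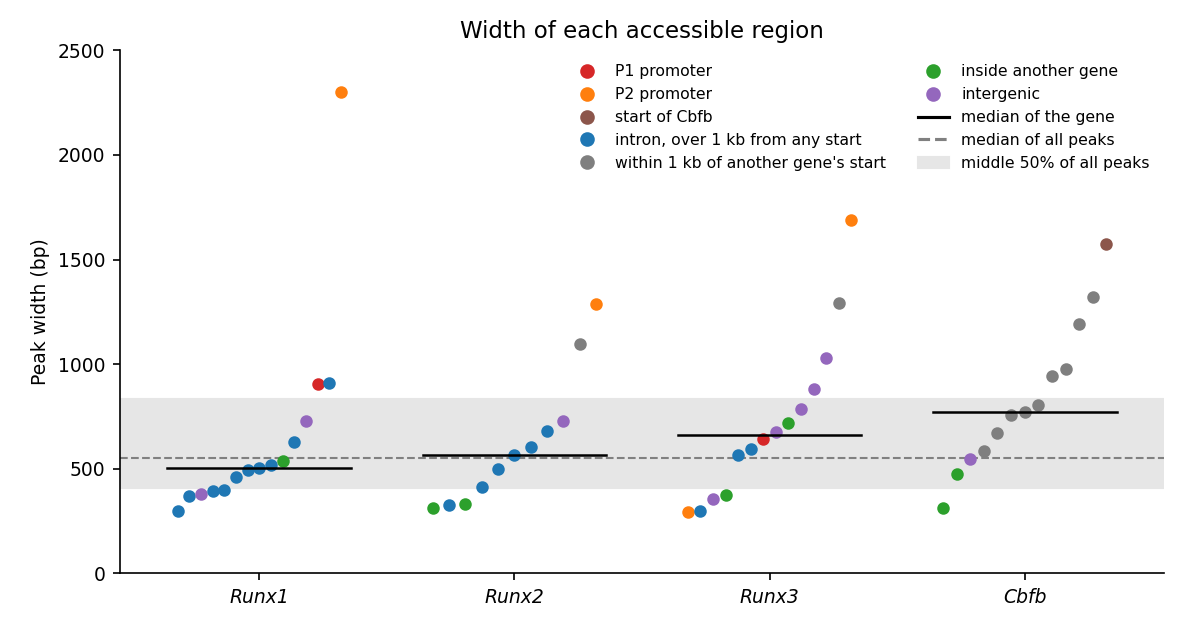
Width in bp of each of the 53 peaks, ordered by width within each gene and coloured by position class, with the median of each gene (black line), the median of all peaks (551 bp, dashed) and the range between the quartiles of all peaks (410 to 835 bp, grey). The widest peak of each gene is one classed to P2 (at Runx3, past the P2 start) or, for Cbfb, the start peak.

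The counts were set beside those of all 22271 coding genes, counted in the same way. The median coding gene had 5 peaks in its body and 100 kb to either side. By this count Runx1 stood at percentile 91.8, Runx3 at 89.4, Cbfb at 86.3 and Runx2 at 78.8. Longer genes have longer windows, and per Mb of window the order changed, with 54.4 peaks at Runx3 (percentile 84.4), 52.6 at Cbfb (82.7), 35.3 at Runx1 (66.3) and 21.2 at Runx2 (47.4), against a median of 23.5. Within the gene body alone, Runx1 with 12 peaks was at percentile 99.7, Runx2 with 8 at 99.0, Runx3 with 6 at 98.0 and Cbfb with 1 at 63.0. These body counts are not adjusted for gene length either, and they were not compared among long genes only.

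At least 1 intronic enhancer peak was found in 3 of the 4 genes and in 19.9% of coding genes. Runx1 and Runx2 had at least 6, the number found in Runx2, as did 1.32% of coding genes. Both are long genes, of 225 and 319 kb. Among coding genes of at least 100 kb, a comparison added after the data had been seen, Runx1 was at percentile 97.3 by intronic enhancer peaks and Runx2 at 90.3, in place of 99.7 and 98.9 among all.

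**Figure D4:**
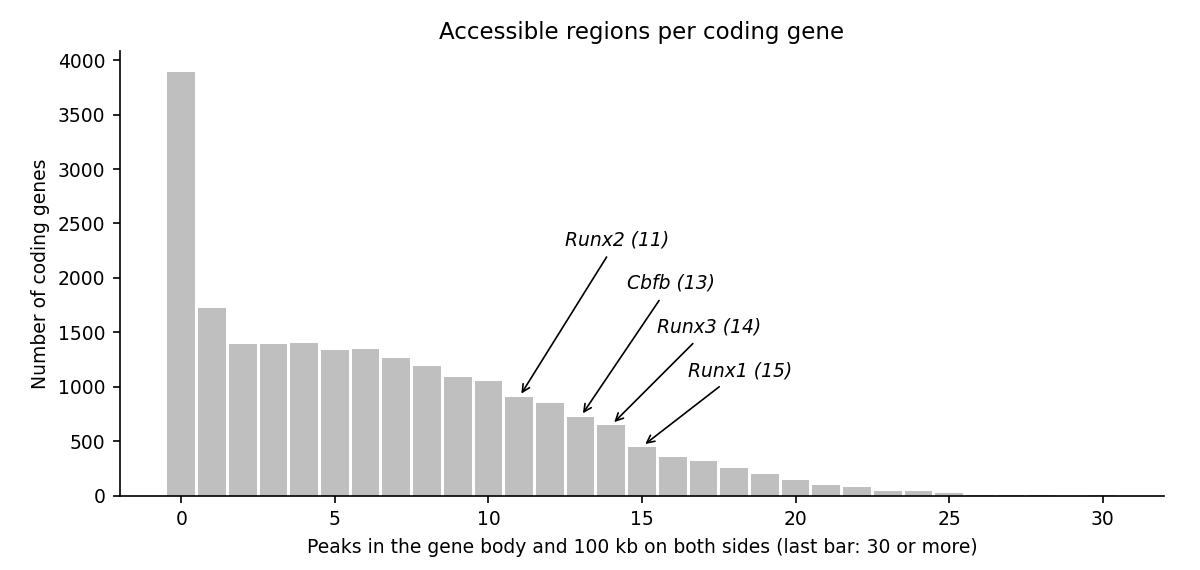
Number of coding genes (vertical axis) by the number of peaks in the gene body and 100 kb on both sides (horizontal axis), with the counts of the 4 genes marked by arrows. Runx2 (11), Cbfb (13), Runx3 (14) and Runx1 (15) stand to the right of the median of 5, within the body of the distribution.

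Short words recognised by T-cell transcription factors were then counted in the peaks, on both strands. A RUNX word (TGTGGT or TGCGGT) was present in 28 of the 53 peaks, or 52.8% (95% Wilson interval 39.7 to 65.6%), and in 50.8% of all peaks. The word TGGGAA, recognised by the Notch partner RBPJ, was present in 24 peaks, or 45.3% (32.7 to 58.5%), and in 42.5% of all peaks. Over whole peaks, both shares were near that of the list. In the central 200 bp, a RUNX word was present in 30.2% of the 53 peaks and 24.2% of all peaks, and TGGGAA in 9.43% and 15.3%. The intervals cover counting error only, and peaks of a gene are not independent.

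Single peaks held from 0 to 4 RUNX words. Both P1 peaks held TGTGGTT, in 4 copies at Runx1 and 3 at Runx3, while of the 4 P2 peaks only that of Runx1 held a RUNX word, with 2 copies of TGCGGT. Of the promoter peaks of the list, 11.8% held TGTGGTT and 52.4% held a RUNX word. Among the 19 intronic enhancer peaks, 9 held a RUNX word (47.4%, interval 27.3 to 68.3%) and 8 held TGGGAA (42.1%, 23.1 to 63.7%), against 51.0% and 38.0% of distal intronic peaks of the list. The ETS word AGGAAG was present in 13 of them (68.4%, interval 46.0 to 84.6%) and the GATA word AGATAA in 6 (31.6%, 15.4 to 54.0%), against 63.5% and 22.0% of distal intronic peaks of the list. The share with the ETS word was near that of the list. Within the central 200 bp, 8 of the 19 held the ETS word (42.1%), against 38.7% of distal intronic peaks of the list. By gene these were 3 of 10 in Runx1, 5 of 6 in Runx2 and 0 of 3 in Runx3, too few to compare. Over whole peaks the word was in 7 of 10, 5 of 6 and 1 of 3. The start peak of Cbfb, 1573 bp wide, held neither a RUNX word nor TGGGAA, but 16 copies of the SP word GGGCGG. At least 1 copy of that word was present in 76.6% of promoter peaks of the list.

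**Figure D5:**
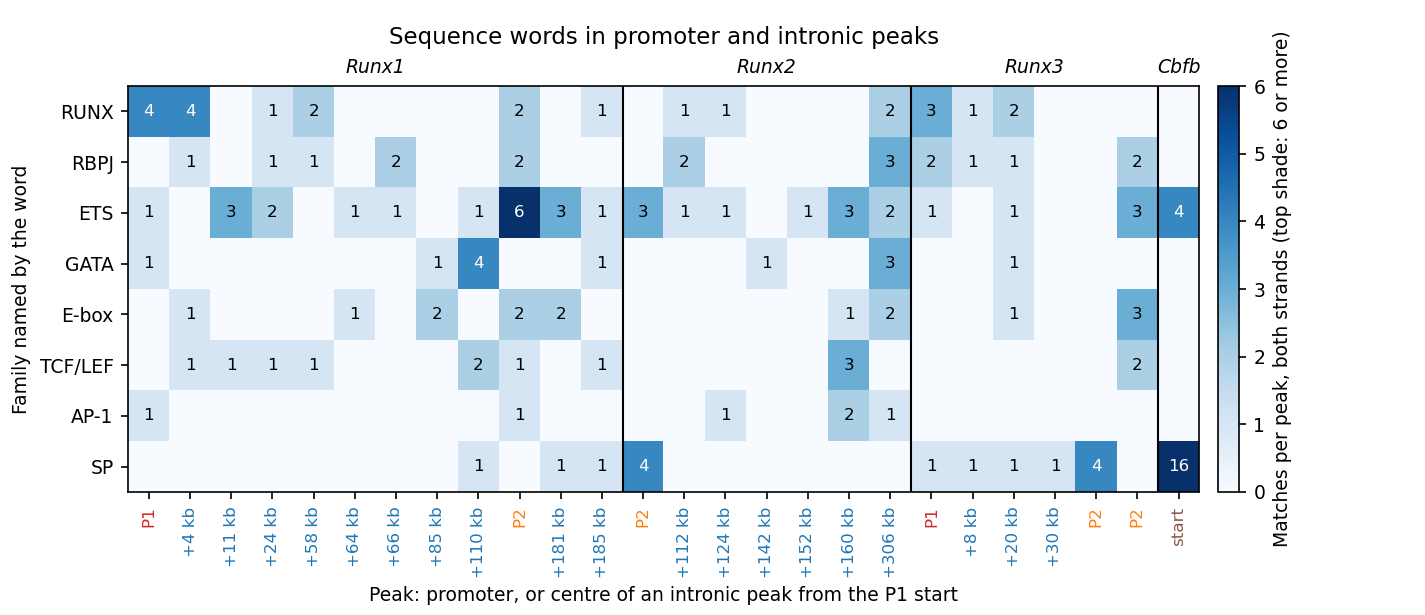
Matches per peak of 8 short words, named by the factor family that recognises them (rows), in promoter and intronic enhancer peaks in the order of transcription (columns, labelled by promoter or by the distance of the centre from the P1 start). RUNX words reach 4 copies in the P1 peak of Runx1 and in the peak 4 kb past it, and the SP word reaches 16 at the start of Cbfb.

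The intronic enhancer peak with most RUNX words was chosen for each Runx gene, and the 200 bases of it with most of these words are shown here so that their spacing can be seen. The sequences are 5′ to 3′ on the strand of the gene (mm9), lie in introns, and carry both RUNX words and their reverse complements in capitals.
Runx1 intronic: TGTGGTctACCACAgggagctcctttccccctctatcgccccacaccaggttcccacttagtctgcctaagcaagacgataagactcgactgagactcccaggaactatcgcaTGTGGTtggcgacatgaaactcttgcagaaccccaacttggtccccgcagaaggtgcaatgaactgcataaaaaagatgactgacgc
Runx2 intronic: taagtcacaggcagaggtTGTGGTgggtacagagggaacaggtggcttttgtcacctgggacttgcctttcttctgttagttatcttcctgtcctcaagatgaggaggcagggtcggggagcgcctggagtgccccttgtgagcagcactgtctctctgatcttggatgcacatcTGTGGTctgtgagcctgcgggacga
Runx3 intronic: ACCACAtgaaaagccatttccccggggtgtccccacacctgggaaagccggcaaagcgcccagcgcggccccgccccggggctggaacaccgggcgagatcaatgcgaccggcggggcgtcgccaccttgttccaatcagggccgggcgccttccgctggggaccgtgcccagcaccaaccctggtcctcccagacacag
The Runx1 stretch, chr16:92822334-92822533 (minus strand), is from the peak 3.99 kb past P1 and holds 3 of its 4 words, a pair of which face each other 2 bases apart. The Runx2 stretch, chr17:44645397-44645596 (minus strand), is from the peak at 306 kb and holds both of its words. The Runx3 stretch, chr4:134696643-134696842 (plus strand), is from the peak at 20253 bp and holds 1 of its 2 words. The peak of Runx1 at 110 kb held 4 GATA words, the most of any intronic enhancer peak, but at 909 bp it was also the widest of these. The Runx2 peak at 306 kb held 3 GATA words in 603 bp. Of the 4 words of the Runx1 peak, 3 lie in the 300 bases at chr16:92715990-92716289. They are shown on the minus strand with AGATAA and its reverse complement in capitals.
Runx1 GATA: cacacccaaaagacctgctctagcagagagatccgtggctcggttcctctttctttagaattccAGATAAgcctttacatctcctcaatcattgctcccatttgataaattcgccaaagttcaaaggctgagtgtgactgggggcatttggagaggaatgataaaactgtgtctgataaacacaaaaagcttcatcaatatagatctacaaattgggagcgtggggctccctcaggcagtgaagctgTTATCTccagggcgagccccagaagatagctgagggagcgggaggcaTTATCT

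Genes that work with the RUNX factors were read in the same way. Of 25 such genes found in the annotation, 20 had a peak within 1 kb of an own start, beside 47.0% of all coding genes. All 4 DNA-binding partners (Ets1, Myb, Gata3 and Spi1) had a start peak, as did 4 of 5 coactivators and modifiers, 7 of 10 corepressors, and 5 of 6 genes with elements known to be bound by RUNX in T cells. Those without were the corepressors Tle1, Tle2 and Runx1t1, the arginine methyltransferase gene Prmt1, and Zbtb7b, which directs CD4 T-cell fate and is silenced through RUNX in CD8 T cells. Zbtb7b had 2 peaks in its body. The most peaks in the body were found at Ets1 (8), Bcl11b (6) and Gata3 (5), all of them T-cell transcription factors, against a median of 2.00 for the list and 1 for all coding genes. Neither Runx1 with 12 nor Runx2 with 8 was below them by this count. The count is not adjusted for length, and Runx1 (225 kb) and Runx2 (319 kb) are longer than Ets1, Bcl11b and Gata3.

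The label of the cells was checked by start peaks of marker genes, which is accessibility and not expression. Of 12 progenitor T-cell markers, 10 had a start peak, beside 47.0% of all coding genes, among them Cd3e, Rag1, Lck, Notch1, Tcf7 and Thy1, while Cd3d and Il2ra had none. None of 4 B-cell markers and none of 2 NK-cell markers had a start peak. Of 4 myeloid markers, Spi1 alone had a start peak, and so did both erythroid markers, Gata1 and Klf1. The lists of 2 and 4 genes are too short to be read against the share of all coding genes.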

How the data were processed

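A commercial ATAC-Seq kit was used for the 6 libraries of Beko cells, 3 per treatment. Per the study's methods and the labels, the authors trimmed reads, aligned them to mm9 with HISAT2 2.2.1, used Picard against duplicates and MACS2, with no input sample, for peaks of every library, and kept peaks found in 3 of 6 libraries outside blacklisted regions. Such calling takes the background from the library itself. A shift of read ends for the transposase offset is not mentioned there. The deposited list gives positions of peaks in bp, and its deposited score is 0 in every row and was not used.

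Starts were converted to count from 1. Sequence and genes came from the assembly NCBIM37, which is mm9, with GENCODE vM1. Overlapping coding records of the same name and strand were counted as 1 gene, which joined 2 records of Runx2. Coding genes on the mitochondrial genome, or on chromosomes without a peak, were left out of the comparison. Classes were given in a fixed order, namely P1 start, P2 start, other own start and start of another gene (each within 1 kb), then by the peak centre as exon, intron, inside another gene or intergenic. A percentile is the share of coding genes with a lower count plus the share with an equal count taken at 50%. Introns were numbered on the P1 transcript with most exons. Words were searched on both strands.

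Named in the text are the 4 genes, their promoter and intronic enhancer peaks, the widest peak of each, other genes with starts nearest to them, and listed genes without a start peak or with most body peaks. Other loci (peaks with extreme values, the shared run at P1) were chosen after their values were seen. The members and the gene lists were chosen with earlier results of these data known. Kat6a, Kmt2a and Spi1 are Myst3, Mll1 and Sfpi1 in the annotation, and Ptcra was not matched. Python 3.11.15, numpy 2.4.6, scipy 1.17.1 and matplotlib 3.10.9 were used, and the counting code was tested on simulated peaks and sequences.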

Additional observations from a re-analysis of the deposited data

How the results depend on the processing

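No paired analysis was possible because 1 merged list replaces the libraries, and leaving out a library was not possible either. The number of peaks was 42 with flanks of 50 kb and 69 with 200 kb. Keeping only peaks of at least 500 bp left 35 of the 53 peaks and 9 of the 19 intronic enhancer peaks, as the filter itself requires. The count of 5 of 6 P1 and P2 promoters with a peak was the same within 500 bp, within 2 kb, with the start inside the peak and among peaks of at least 500 bp. Intronic enhancer peaks numbered 18 when the distance from a start was over 2 kb and 19 when it was over 500 bp or when starts of coding transcripts alone were used.

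The share of coding genes with a peak at an own start was 45.8% within 500 bp, 49.0% within 2 kb, 44.0% with the start inside the peak and 46.0% for starts of coding transcripts. In the central 200 bp, a RUNX word was found in 30.2% of the 53 peaks (24.2% of all peaks) and TGGGAA in 9.43% (15.3%). TGTGGT alone gave 39.6% (41.4%) and TGGGAA or TGAGAA gave 64.2% (62.5%). All percentiles of the 4 genes moved with the measure, Runx1 from 66.3 per Mb of window to 99.7 in the body and Cbfb from 82.7 per Mb to 63.0 in the body. How peaks vary between libraries or treatments cannot be seen in a merged list, and a place without a peak may be accessible below the calling threshold.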
